A study of Mus musculus with 12 samples.

Results

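Malignant peripheral nerve sheath tumours are sarcomas that arise from cells of the nerve sheath. The experiment set 4 mouse tumours of this kind that were shrinking under palbociclib plus mirdametinib against 4 tumours from vehicle-treated animals, which together make up 8 of the 12 bulk RNA-seq libraries of the series. The members were chosen by title, those starting with Regress against those starting with Veh, and all 15650 genes with enough counts were compared. The regressing tumours received 100 mg/kg palbociclib and 1 mg/kg mirdametinib by daily oral gavage and were taken during regression. The vehicle tumours received vehicle and were taken at the terminal stage, so treatment and stage of harvest cannot be told apart. All animals were of strain C57B/6 and genotype WT, and every tumour, the vehicle ones too, was started with an adenovirus that delivered Cas9 against Nf1 and a second gene, written Cdk2na in the labels and taken here to be Cdkn2a. The other 4 libraries, tumours taken at the terminal stage of the same combination, entered the fit for its estimate of the spread and are not compared here. The labels used here give neither age nor sex and do not state that each tumour came from a separate animal, so p-values measure only the spread between these samples.

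Palbociclib inhibits Cdk4 and Cdk6, the kinases that act with D-type cyclins to phosphorylate the retinoblastoma protein and so release E2F factors, which switch on genes of DNA replication and, through later factors, of mitosis. Mirdametinib inhibits the kinases Mek1 and Mek2, which activate Erk in the pathway that the RAS-inactivating protein Nf1 normally restrains. Cells of these tumours descend from the Schwann lineage, whose mature members make the myelin of peripheral nerve.

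Read depth lay between 13194699 and 22639625 counts per library, and values are CPM, counts divided by library sizes that were scaled by the trimmed mean of M-values (TMM). No gene passed an adjusted p of 0.05 in edgeR's quasi-likelihood test with Benjamini-Hochberg adjustment, which is 0% of the 15650 genes, and the lowest adjusted p, 0.236, was that of Naglu among others. At an unadjusted edgeR p under 0.05, 1051 genes (6.72%) were higher and 943 (6.03%) lower in regressing tumours. The 4 regressing values lay wholly above the 4 vehicle values for 548 genes (3.5%) and wholly below them for 647 genes (4.13%). DESeq2 called 344 genes (2.2%) higher and 133 (0.85%) lower at an adjusted p under 0.05, so calls of single genes depend on the tool. In counts simulated with known changes, DESeq2 calls held a larger share of unchanged genes than that threshold states. The DESeq2 adjusted p values below are to be read with that limit. The median log2 difference of all genes tested was -0.02, and the gene lists below are described against it and against these percentages. Log2 differences are regressing minus vehicle, SE is their standard error from edgeR, ± is the SD over 4 tumours, and per-tumour values follow replicates 1 to 4.

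Tissue markers differed between the libraries. The sum of 5 skeletal muscle markers lay between 2170 and 34400 CPM in regressing tumours and between 354 and 7070 CPM in vehicle tumours, with regressing tumours 1 and 4 the highest at 34400 and 19200 CPM. The sum of 4 adipocyte markers was 45.5 to 245 CPM in regressing tumours against 3.65 to 23.8 CPM in vehicle tumours, 3 red blood cell markers summed to 65.8 to 1610 against 43.0 to 275 CPM, and 5 lymph node and B cell markers to 3.19 to 112 against 0.715 to 3.08 CPM. The 12 markers of the malignant and Schwann lineage summed to 615 to 859 CPM in regressing tumours and 470 to 1830 CPM in vehicle tumours, 5 of them higher in regressing tumours. Endothelial, macrophage, epithelial and neuronal marker sums overlapped between the groups, and 1 of 3 neuronal markers was at 0 in all 8 tumours. In bulk tissue, fewer cells of a type and less RNA per cell cannot be told apart, and the part of muscle, fat, blood and lymphoid tissue in the differences below was not tested. List medians that moved by more than 1.5 times are therefore also given without regressing tumours 1 and 4. The titles of regressing tumour 1 and of vehicle tumours 1 and 2 end in FFT, which the labels do not explain, and medians that moved by as much are also given for the 5 libraries without that ending.

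Across 118 gene lists, of which 111 had at least 10 genes tested, the median difference was above 0 for 47 and below 0 for 64 of the 111. It exceeded 0.5 for 22 lists and was below -0.3 for 27. Of the 218 annotated immunoglobulin variable genes only 14 passed the filter on low counts, and vehicle tumours were near 0 for most of them, so passing the filter largely fixed their direction and no count or median is given. Leaving out immunoglobulin lists, the highest medians were those of red blood cell, T cell, muscle, fat, ASB and mitochondrially encoded genes, and the lowest those of embryonic muscle, immediate early, FGF ligand, Hox, cholesterol synthesis, mitotic and heterochromatin genes. The FGF ligand median of -0.81 became 0.35 without vehicle tumour 2 and 0.19 without the FFT libraries. For Hox genes the median of -0.78 became -0.13 and -0.06 in the same way. The plot of list medians shows 49 lists.

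**Figure D1:**
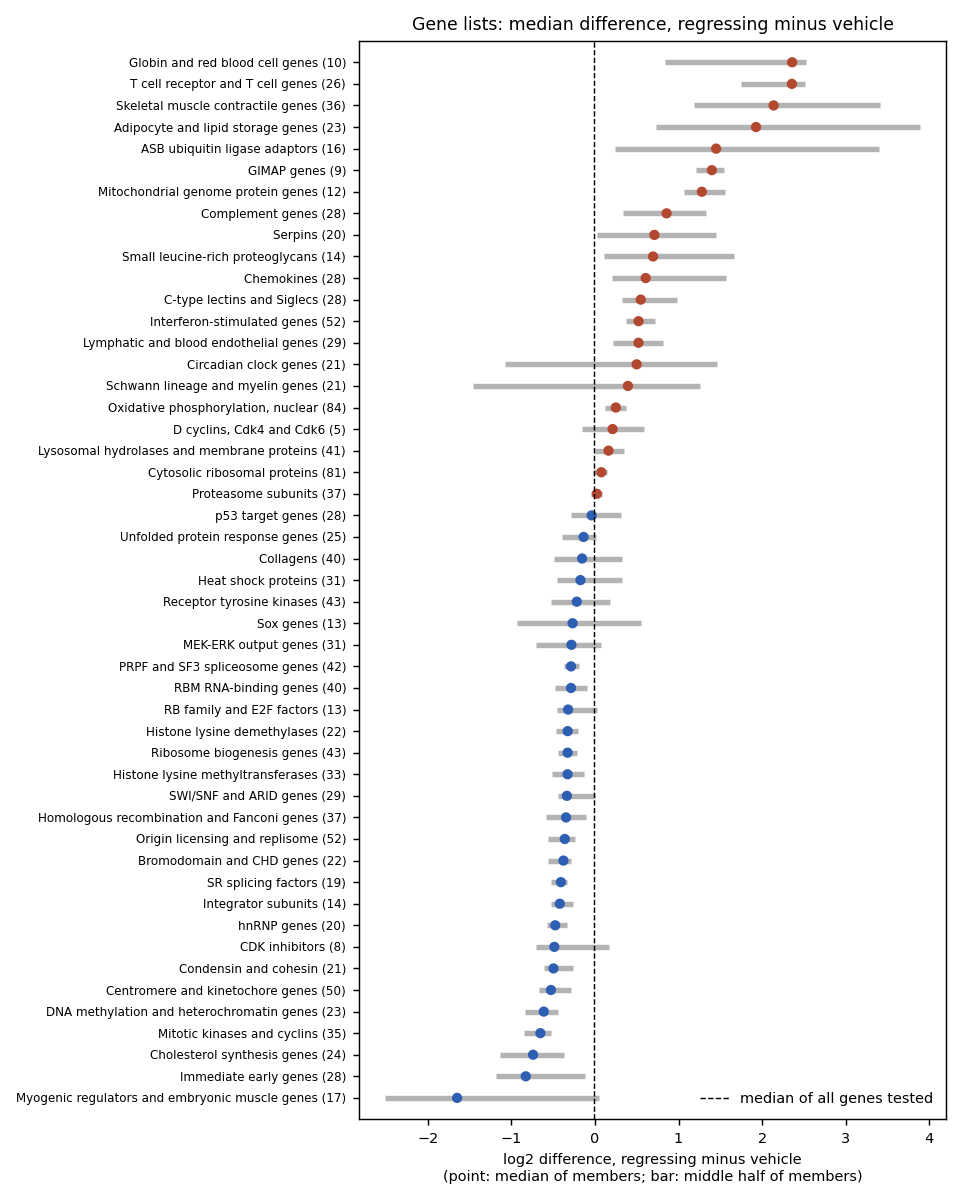
Median log2 difference (regressing minus vehicle, x axis) of each gene list, with the number of members tested in brackets. Points are medians, grey bars span the middle of the members from the 25th to the 75th percentile, red and blue mark medians above and below 0, and the dashed line is the median of all genes at -0.02. Red blood cell and T cell genes stand at the top with 2.36 and 2.36, and embryonic muscle genes at the bottom with -1.65.

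The edited genes were read first. Nf1, which restrains RAS, measured 17.01, 12.5, 11.6 and 19.5 CPM in the regressing tumours, against 17.9, 10.2, 22.1 and 21.8 CPM in the vehicle tumours. Cdkn2a, which encodes an inhibitor of Cdk4 and Cdk6 and an activator of p53, measured 393, 7.49, 227 and 96.6 CPM in the regressing tumours, against 217, 244, 5.08 and 113 CPM in the vehicle tumours. The groups overlapped for both genes, with Cdkn2a low in regressing tumour 2 and vehicle tumour 3, and transcript counts do not read small edits in the gene. The drug targets were also close between the groups, at -0.38 for Cdk4, 0.21 for Cdk6, -0.07 for Map2k1 (which encodes Mek1) and 0.21 for Map2k2 (Mek2). Mapk3, which encodes Erk1, a kinase that Mek activates, differed by 0.05. Values overlapped between the groups for each of these genes. Ccnd1, the D cyclin of highest count, measured 945, 1033, 1392 and 599 CPM in the regressing tumours, against 639, 806, 293 and 913 CPM in the vehicle tumours, a log2 difference of 0.58 (SE 0.39). Regressing tumours 1 to 3 lay above every vehicle tumour and regressing tumour 4 below 3 of the 4. None of the 5 genes of the D cyclin, Cdk4 and Cdk6 list had an edgeR unadjusted p under 0.05, and their median was 0.21, or 0.43 without the FFT libraries. Among 8 CDK inhibitor genes, Cdkn2c, a close relative of the inhibitor encoded at Cdkn2a, measured 27.01, 37.2, 34.6 and 41.6 CPM in the regressing tumours, against 56.4, 67.7, 57.95 and 40.9 CPM in the vehicle tumours, with the lowest vehicle tumour inside the regressing range (log2 difference -0.67 (SE 0.26), edgeR unadjusted p = 0.0255). Cdkn1a, a target of p53, averaged 83.1 ± 21.99 CPM in regressing tumours and 146 ± 106 CPM in vehicle tumours and the groups overlapped. The 13 RB and E2F genes had a median of -0.32, and of -0.08 without regressing tumours 1 and 4. Among them E2f4, a repressor in resting cells, was lower without overlap (-0.49 (SE 0.16)), and E2f6, a repressor that works without RB, was higher with overlap (0.73 (SE 0.29)). E2f1, E2f7, Rb1, Ccne1 and Ccne2 differed by 0.03, -0.46, 0.10, -0.09 and -0.09, each within the spread of the tumours.

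Genes of cell division were lower as families in the regressing tumours, though not in each tumour. Of 35 mitotic kinases, cyclins and their regulators, 34 were lower, with a median of -0.65, and 7 had an edgeR unadjusted p under 0.05 in that direction. Of 50 centromere and kinetochore genes 47 were lower (median -0.53, 6 under that p), of 21 condensin and cohesin genes 20 (-0.50, 4), of 52 origin licensing and replisome genes 51 (-0.36, 3), and of 37 homologous recombination and Fanconi genes 33 (-0.35, 3). The last 2 counts are 5.77% and 8.11% of their lists, near the 6.03% of all genes. Averaged as log2(CPM + 0.5), the mitotic list scored 4.34, 5.62, 5.17 and 4.64 in the regressing tumours, against 5.45 to 5.83 in the vehicle tumours. Regressing tumour 2 scored inside the vehicle range for each of these lists, and regressing tumour 3 did so for replication and recombination. Mki67, a marker of cycling cells, averaged 44.1 ± 14.7 CPM in regressing tumours and 123 ± 48.2 CPM in vehicle tumours, and only vehicle tumour 2 fell inside the regressing range. Cdc25a, the phosphatase that opens S phase, was lower without overlap at 15.2, 21.7, 18.7 and 16.1 CPM in the regressing tumours, against 30.9, 25.4, 30.9 and 23.98 CPM in the vehicle tumours. The 4 cohesin genes with the smallest p were the ring subunits Smc1a and Smc3, the loader Nipbl and the release factor Pds5a, all lower without overlap, with log2 differences of -0.50, -0.61, -0.55 and -0.48. Members that went the other way were Pttg1, which encodes securin, at 38.8, 26.8, 21.5 and 44.7 CPM in the regressing tumours, against 20.4, 19.5, 23.4 and 17.8 CPM in the vehicle tumours, and Cenpb, which binds centromeric satellite DNA, at 392, 314, 332 and 339 CPM in the regressing tumours, against 236, 260.2, 192 and 250.4 CPM in the vehicle tumours. Pttg1 overlapped through vehicle tumour 3 and Cenpb did not overlap. Without regressing tumours 1 and 4 the medians were -0.26 for the mitotic list, -0.17 for centromeres, -0.22 for condensin and cohesin, -0.02 for replication and -0.01 for recombination. Without regressing tumour 2 alone the replication median was -0.62, and the recombination median lay between -0.57 without regressing tumour 2 and -0.17 without regressing tumour 1, and was -0.23 without regressing tumour 4.

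The promoters of the mitotic genes are shown because they carry a shared element. The cell cycle genes homology region (CHR), searched here as TTTGAA or TTTAAA on both strands between 250 bases before and 50 bases after each RefSeq start in GRCm38.p6, is the element through which the MuvB complexes act on mitotic genes. It was present in 61.5% of 26 mitotic promoters and 48.9% of 45 centromere promoters, against 23.2% of the 11219 tested genes with a promoter in the table. CCAAT, the NF-Y element, was in 76.9% of mitotic promoters against 42.5% of all tested. An E2F element, searched as TTTCCCGC, TTTGGCGC, TTTCGCGC or TTTGCCGC, was in 38.1% of 42 replication promoters against 4.4%. A match to these letters is a description and not a bound site. The 3 members with the smallest p and a CHR upstream of their start were Mki67 (chr7:135716415-135716534, minus strand), Ube2c (chr2:164769809-164769928, plus strand) and Cdc20 (chr4:118437344-118437463, minus strand), printed 5′ to 3′ with the CHR in capitals.
Mki67: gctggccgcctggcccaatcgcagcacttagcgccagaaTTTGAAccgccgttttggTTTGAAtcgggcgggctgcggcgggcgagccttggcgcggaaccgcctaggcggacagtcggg
Ube2c: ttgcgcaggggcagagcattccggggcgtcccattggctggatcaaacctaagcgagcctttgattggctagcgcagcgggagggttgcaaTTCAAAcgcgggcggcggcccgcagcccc
Cdc20: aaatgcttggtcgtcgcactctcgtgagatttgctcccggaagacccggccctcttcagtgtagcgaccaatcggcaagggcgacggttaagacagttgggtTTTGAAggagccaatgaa
Ube2c, the ubiquitin-conjugating enzyme of the anaphase-promoting complex, measured 23.7, 58.7, 43.1 and 36.1 CPM in the regressing tumours, against 59.4, 79.5, 76.6 and 81.3 CPM in the vehicle tumours. Cdc20, an activator of that complex, measured 30.5, 85.01, 55.5 and 31.2 CPM in the regressing tumours, against 78.7, 81.8, 105 and 108 CPM in the vehicle tumours. Ube2c did not overlap between the groups, while Cdc20 in regressing tumour 2 lay among the vehicle values. Both genes were named for their promoters, after their values were seen.

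Families that make and process messenger RNA and that remodel chromatin were lower in the regressing tumours, each by a small amount. All 20 hnRNP genes, which encode proteins that coat nascent RNA, were lower, with a median of -0.48. Of these, 14 had an edgeR unadjusted p under 0.05, 8 did not overlap, and DESeq2 called 6 at an adjusted p under 0.05. The RNA processing and chromatin lists were drawn up after values had been seen, so their counts are a description and no support for a direction. Hnrnpc (ENSMUSG00000060373, chr14:52073377-52104028, GRCm38), which binds uridine tracts in introns, measured 197, 208, 201 and 176 CPM in the regressing tumours, against 269, 343, 302 and 292 CPM in the vehicle tumours. Hnrnpa2b1, which sorts and splices RNA, measured 348, 485, 424 and 390.3 CPM in the regressing tumours, against 528, 614, 653 and 656 CPM in the vehicle tumours. In both genes all 4 regressing tumours lay below every vehicle tumour, with log2 differences of -0.63 (SE 0.15) and -0.57 (SE 0.15) and DESeq2 adjusted p of 0.00603 and 0.0139. Hnrnpll and Hnrnpm, regulators of alternative exons, also did not overlap and differed by -0.54 and -0.62. Averaged as log2(CPM + 0.5) over the 20 genes and set against the vehicle mean, the tumours scored -0.65, -0.20, -0.39 and -0.62 in the regressing tumours, against -0.18, 0.08, 0.10 and 0.01 in the vehicle tumours. Regressing tumour 2 was the nearest to the vehicle tumours and vehicle tumour 1 the lowest of its group, and a narrow gap separated the groups.

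Other families of the same kind behaved alike in sign. Of 19 SR splicing factors 18 were lower (median -0.41, 7 with an edgeR unadjusted p under 0.05), of 42 spliceosome genes 40 (-0.29, 12), of 40 RBM genes 33 (-0.29, 13) and of 14 Integrator subunits all 14 (-0.42, 6). No member of these 4 lists was higher at that p. Tra2a, an activator of exon inclusion, measured 40.97, 57.4, 56.7 and 45.05 CPM in the regressing tumours, against 64.4, 86.5, 72.9 and 82.04 CPM in the vehicle tumours. Snrpa, a protein of the U1 particle that recognises the start of introns, measured 63.5, 72, 77.9 and 54.5 CPM in the regressing tumours, against 90.5, 89.98, 100.3 and 123 CPM in the vehicle tumours. Rbm8a, a core subunit of the exon junction complex, measured 54.4, 62.8, 56.3 and 54.8 CPM in the regressing tumours, against 96.02, 88.7, 93.1 and 115 CPM in the vehicle tumours. None of these 3 genes overlapped between the groups, and the log2 differences were -0.61 (SE 0.15), -0.59 (SE 0.16) and -0.78 (SE 0.18). Also without overlap were Srsf11 (-0.47), the branch point factor Sf3b1 (-0.39), Snrnp70 (-0.47) and Snrpa1 (-0.46) of the spliceosome, and Rbm14, Rbm10 and Rbm26 (-0.68, -0.56 and -0.53). Scaf4 and Scaf11, which bind the tail of RNA polymerase and splicing factors, overlapped and differed by -0.54 and -0.57. In the Integrator, which cuts nascent RNA at paused polymerases, Ints7, Ints6 and Ints3 lay apart (-0.71, -0.72 and -0.69) and Ints10 overlapped (-0.54). Without regressing tumours 1 and 4 the SR median was -0.25 and the Integrator median -0.26, and the hnRNP median -0.37.

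Chromatin regulators were lower by similar amounts. Of 22 bromodomain and CHD genes 21 were lower, with a median of -0.38, 9 at an edgeR unadjusted p under 0.05 and 8 without overlap. Brd3, which reads acetylated histones, measured 32.6, 34.6, 32.8 and 34.9 CPM in the regressing tumours, against 62.2, 38.9, 62.8 and 54.96 CPM in the vehicle tumours. Every regressing tumour lay below every vehicle tumour, with the regressing values within a narrow range, a log2 difference of -0.70 (SE 0.16) and a DESeq2 adjusted p of 0.0064. The NuRD remodellers Chd3 and Chd4 were likewise apart (-0.68 and -0.41). Of 33 histone lysine methyltransferases 28 were lower (median -0.33, 10 at that p), led by Setd2, the methyltransferase of transcribed gene bodies, at 43.1, 50.2, 42.9 and 49.3 CPM in the regressing tumours, against 67.5, 55.96, 70 and 61.9 CPM in the vehicle tumours. Kmt2b, Setd5 and Kmt5a differed by -0.69, -0.63 and -0.51, and in all 4 genes the groups did not overlap. Of 22 lysine demethylases 21 were lower (-0.33, 5 at that p), led by Kdm6b, which removes the Polycomb mark, at 30.1, 31.6, 37.4 and 34.6 CPM in the regressing tumours, against 45.3, 47.5, 59.9 and 57.3 CPM in the vehicle tumours. Its groups did not overlap, nor did those of Kdm5b (-0.55) and Kdm4a (-0.37), while those of Kdm1a did (-0.45). Of 29 SWI/SNF and ARID genes 22 were lower (-0.34, 10 at that p), among them Arid4b (-0.58) without overlap and Arid1a, Arid1b and the ISWI motor Smarca5 with overlap (-0.45, -0.45 and -0.42). None of the 106 members of these 4 lists was higher at that p.

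**Figure D2:**
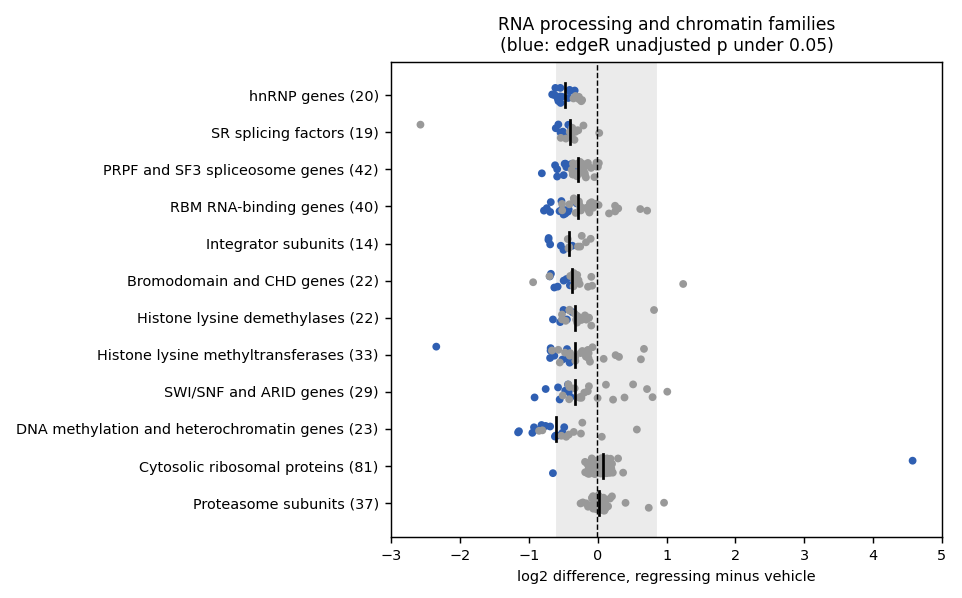
Log2 difference (regressing minus vehicle, x axis) of every tested member of 12 families, with the number of members in brackets. Each point is a gene, blue where the edgeR unadjusted p is under 0.05, the black bar is the family median, the dashed line the median of all genes, and the grey band spans all genes from the 10th percentile (-0.59) to the 90th (0.85). RNA processing and chromatin families sit left of the dashed line, and ribosomal proteins and proteasome subunits sit near it.

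Proteins that write DNA methylation and pack heterochromatin formed the lowest of the chromatin lists. Of 23 genes 21 were lower, with a median of -0.61, and 13 had an edgeR unadjusted p under 0.05. Dnmt3b, which sets new DNA methylation, measured 1.21, 1.86, 1.42 and 1.39 CPM in the regressing tumours, against 3.55, 3.002, 3.86 and 2.63 CPM in the vehicle tumours. Tet3, which oxidises that methylation, measured 25.3, 24.9, 30.7 and 35.6 CPM in the regressing tumours, against 44.3, 49.1, 46.1 and 38.6 CPM in the vehicle tumours. Both were lower in every regressing tumour than in any vehicle tumour, with log2 differences of -1.15 (SE 0.33) and -0.61 (SE 0.18). Lmnb2, a lamin of the nuclear envelope, and Suv39h1, which methylates histones of heterochromatin, differed by -0.93 (SE 0.31) and -0.95 (SE 0.35) and overlapped, and vehicle tumour 3 was the highest for both at 83.4 and 175 CPM. The list median was -0.35 without regressing tumours 1 and 4, and it lay between -0.67 and -0.55 when any single library was left out. In their promoters, an E2F element was found in 22.7% of 22, against 4.4% of all tested.

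Genes that assemble ribosomes were lower. All 43 ribosome biogenesis genes were lower (median -0.33), 4 of them at an edgeR unadjusted p under 0.05. Nolc1, a nucleolar protein that chaperones small nucleolar particles, measured 56.6, 80.1, 81.6 and 56.3 CPM in the regressing tumours, against 104, 112, 128 and 141 CPM in the vehicle tumours, without overlap. Noc3l, which carries pre-ribosomes through the nucleus, was also apart (-0.56 (SE 0.18)), and Rrp1b and Las1l overlapped (-0.85 and -0.33). The median was -0.15 without regressing tumours 1 and 4 and -0.49 without the FFT libraries. Of 81 cytosolic ribosomal protein genes 57 were higher, with a median of 0.08 and 1 gene at that p in each direction. Without regressing tumours 1 and 4 that median was -0.05 and 27 of the 81 were higher, and with 1 library left out it lay between -0.01 without vehicle tumour 1 and 0.22 without vehicle tumour 2. The gene higher at that p was Rpl3l, the muscle form of a large-subunit protein, at 187, 18.99, 25.7 and 74.05 CPM in the regressing tumours, against 6.63, 0.858, 0.203 and 4.96 CPM in the vehicle tumours, which ranked the tumours as the muscle markers did within the regressing group. Rpl13a differed by -0.65 (SE 0.23), without overlap, and it has near-identical pseudogenes that can share its reads. Of 37 proteasome subunits 23 were higher and 14 lower, with a median of 0.02 and none at that p. The proteasome median was 0.01 without regressing tumours 1 and 4, -0.08 without the FFT libraries and -0.01 to 0.06 with 1 library left out.

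Genes that respond within minutes to growth factors were lower as a list, but the difference rested on vehicle tumour 2. Of 28 immediate early genes 21 were lower with a median of -0.83, and 5 had an edgeR unadjusted p under 0.05. Without vehicle tumour 2 the median was 0.01, and in the libraries without the FFT ending it was 0.04. Fosl2, a subunit of the AP-1 factor, measured 98.3, 107, 77.6 and 66.7 CPM in the regressing tumours, against 139, 229.6, 199.7 and 114 CPM in the vehicle tumours. Jun, its partner, measured 175, 188, 169 and 163 CPM in the regressing tumours, against 273, 226, 2071 and 179 CPM in the vehicle tumours. Fosl2 did not overlap between the groups (log2 difference -0.97 (SE 0.24), DESeq2 adjusted p = 0.0162), while for Jun vehicle tumour 3 stood far above all others and vehicle tumour 4 inside the regressing range. Ccn1, a matricellular target of serum response factor, measured 43.96, 94.6, 77.8 and 62.5 CPM in the regressing tumours, against 170.1, 526, 89.1 and 77.1 CPM in the vehicle tumours, and vehicle tumour 2 was the highest. Nr4a2, an orphan nuclear receptor, overlapped and differed by -0.91 (SE 0.36). A CArG box, the site of serum response factor, was found in 13% of 23 promoters of the list against 1.58% of all tested. The cAMP response element TGACGTCA, added after values had been seen, was in 13% of them against 3.34%.

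The usual transcript readouts of Mek and Erk activity overlapped between the groups, though Dusp6 was lower in most regressing tumours. Of 31 Mek-Erk output genes 22 were lower, with a median of -0.28, 3 lower and 1 higher at an edgeR unadjusted p under 0.05, and the median was -0.02 in libraries without the FFT ending and -0.06 without vehicle tumour 2. Dusp6, the phosphatase that Erk induces against itself, measured 103, 111, 129 and 70.9 CPM in the regressing tumours, against 119.8, 179.7, 136 and 147 CPM in the vehicle tumours. Regressing tumour 3 lay inside the vehicle range and the other regressing tumours below it. The feedback inhibitors Spry2 and Spry4 differed by 0.32 (SE 0.34) and 0.18 (SE 0.46), the factors Etv4, Etv5 and Fosl1 by -0.14 (SE 0.63), -0.33 (SE 0.30) and 0.37 (SE 0.70), and Phlda1 by -0.13 (SE 0.24). From Spry2 to Phlda1 all of these overlapped, and for each of them the log2 difference was less than 1.5 times its SE. The members with the smallest p were Plat, the tissue plasminogen activator, at 67.7, 99.8, 86.2 and 60.2 CPM in the regressing tumours, against 244, 138, 149 and 137 CPM in the vehicle tumours, and Myc, at 55.9, 98.2, 80.96 and 48.5 CPM in the regressing tumours, against 83.6, 75.04, 384 and 139 CPM in the vehicle tumours. Plat did not overlap (log2 difference -1.09 (SE 0.27), DESeq2 adjusted p = 0.0164), whereas Myc overlapped and was highest in vehicle tumour 3. Spred3, a RAS inhibitor, was lower without overlap (-0.66 (SE 0.28)) and Emp1, a membrane protein of the myelin protein family, was higher with overlap (0.58 (SE 0.26)).

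Receptors upstream of that pathway differed one by one. Of 43 receptor tyrosine kinases 26 were lower, with a median of -0.22 that was 0.03 in libraries without the FFT ending, -0.12 without vehicle tumour 3 and -0.11 without regressing tumour 2. Erbb3, the neuregulin receptor of Schwann cells, measured 1.02, 1.8, 2.26 and 2.47 CPM in the regressing tumours, against 37.04, 1.07, 8.08 and 9.63 CPM in the vehicle tumours. It was high in vehicle tumour 1 and low in vehicle tumour 2, which lay inside the regressing range. Ephb2 and Epha3, receptors for ephrins, differed by -1.43 (SE 0.42) and -1.52 (SE 0.58) with overlap, and Ptk7, a co-receptor of Wnt signals, by -1.18 (SE 0.46) without overlap and with its lowest value in regressing tumour 4. These 4 and 1 more had an edgeR unadjusted p under 0.05, all lower.

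Cholesterol synthesis genes were lower as a pathway, though hardly so in the libraries without the FFT ending. Of 24 genes 23 were lower with a median of -0.74, 9 of them at an edgeR unadjusted p under 0.05, but the median was -0.09 among libraries without the FFT ending and -0.52 without regressing tumours 1 and 4. Set against the vehicle mean, the mean log2(CPM + 0.5) of the list was -1.58, -0.65, -0.24 and -0.71 in the regressing tumours, against 0.07, 0.68, -0.47 and -0.28 in the vehicle tumours. Regressing tumour 1 was the lowest and vehicle tumour 2 the highest, and both carry the FFT ending. Dhcr7 (ENSMUSG00000058454, chr7:143823145-143848410, GRCm38), which catalyses the last step, measured 21.1, 29.9, 36.5 and 31.6 CPM in the regressing tumours, against 47.9, 54.96, 47.02 and 41.2 CPM in the vehicle tumours. The groups did not overlap, with a log2 difference of -0.68 (SE 0.18) and a DESeq2 adjusted p of 0.0293. Hmgcs1, a synthase of the early steps, and Hsd17b7, an enzyme of the later steps, differed by -0.96 (SE 0.30) and -1.16 (SE 0.37) and overlapped. All 16 promoters of the list in the table held CCAAT, a common element found in 42.5% of all tested. The sterol element, searched as CACCCCAC on both strands after values had been seen, was in 1 of them, against 3.9% of all tested. That promoter, Hmgcs1 (chr13:119690159-119690278, plus strand), is printed with the element in capitals because its gene is among the 4 with the smallest p.
Hmgcs1: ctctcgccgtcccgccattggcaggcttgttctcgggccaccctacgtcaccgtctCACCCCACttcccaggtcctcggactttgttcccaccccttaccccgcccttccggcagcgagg
No match in the other 15 windows says only that these letters are not there.

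Circadian clock genes included members that were higher and members that were lower in every regressing tumour. In the mouse clock, Arntl (also called Bmal1) with Clock or Npas2 binds E-boxes and drives Per, Cry, Nr1d1, Nr1d2 and the PAR-bZIP factors Dbp and Tef, and Nr1d1 and Nr1d2 in turn repress Arntl, Npas2 and Nfil3. Of 21 clock genes 13 were higher and 8 lower, with a median of 0.50. At an edgeR unadjusted p under 0.05, 9 were higher and 4 lower, and DESeq2 called 5 higher and 1 lower. Nr1d1 (ENSMUSG00000020889, chr11:98767932-98775333, GRCm38) measured 65.05, 59.3, 97.8 and 93.7 CPM in the regressing tumours, against 14.8, 17.6, 24.4 and 20.4 CPM in the vehicle tumours. Nr1d2 measured 60.02, 49.01, 62.6 and 98.04 CPM in the regressing tumours, against 20.2, 26.01, 31.1 and 20.9 CPM in the vehicle tumours. Dbp measured 56.96, 18.6, 41.9 and 89.8 CPM in the regressing tumours, against 6.25, 17.1, 3.96 and 3.62 CPM in the vehicle tumours. In these 3 genes every regressing tumour lay above every vehicle tumour, with vehicle tumour 2 and regressing tumour 2 close for Dbp. The log2 differences were 2.03 (SE 0.41), 1.46 (SE 0.33) and 2.75 (SE 0.61), with DESeq2 adjusted p of 0.000627, 0.00556 and 0.00104 and edgeR adjusted p of 0.236, 0.236 and 0.236. Tef, Per3 and Cry2 were higher by 1.37 (SE 0.41), 1.89 (SE 0.54) and 1.0 (SE 0.34), and all 3 overlapped through regressing tumour 2, which was low in each. Clock genes named here other than Nr1d1, Nr1d2, Dbp and Per3 were chosen after their values were seen.

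Arntl, its paralog and its partner Npas2 were lower. Arntl measured 13.5, 13.2, 11.3 and 10.1 CPM in the regressing tumours, against 30.7, 76.8, 25.4 and 15.9 CPM in the vehicle tumours. Arntl2, its paralog, measured 4.33, 5.28, 4.57 and 2.85 CPM in the regressing tumours, against 8.21, 11.9, 11.8 and 6.24 CPM in the vehicle tumours. Npas2 measured 1.85, 1.97, 1.996 and 0.154 CPM in the regressing tumours, against 4.11, 5.72, 8.13 and 3.27 CPM in the vehicle tumours. All 3 were lower without overlap, with log2 differences of -1.63 (SE 0.50), -1.16 (SE 0.44) and -1.81 (SE 0.72). Nfil3, a repressor that competes with Dbp and Tef for D-boxes, differed by -1.27 (SE 0.42) and overlapped through regressing tumour 1 and vehicle tumour 4. Per1, which also answers to growth factors, and Clock, whose own RNA cycles little, differed by -1.07 (SE 0.59) and -0.27 (SE 0.15), both with overlap. The labels used here give no hour of harvest, so a difference in time of day between the groups cannot be told apart from treatment. The list median was 0.27 without regressing tumour 4, 0.78 without vehicle tumour 2 and 0.09 without regressing tumours 1 and 4, where 3 genes were higher and 2 lower at an edgeR unadjusted p under 0.05.

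**Figure D3:**
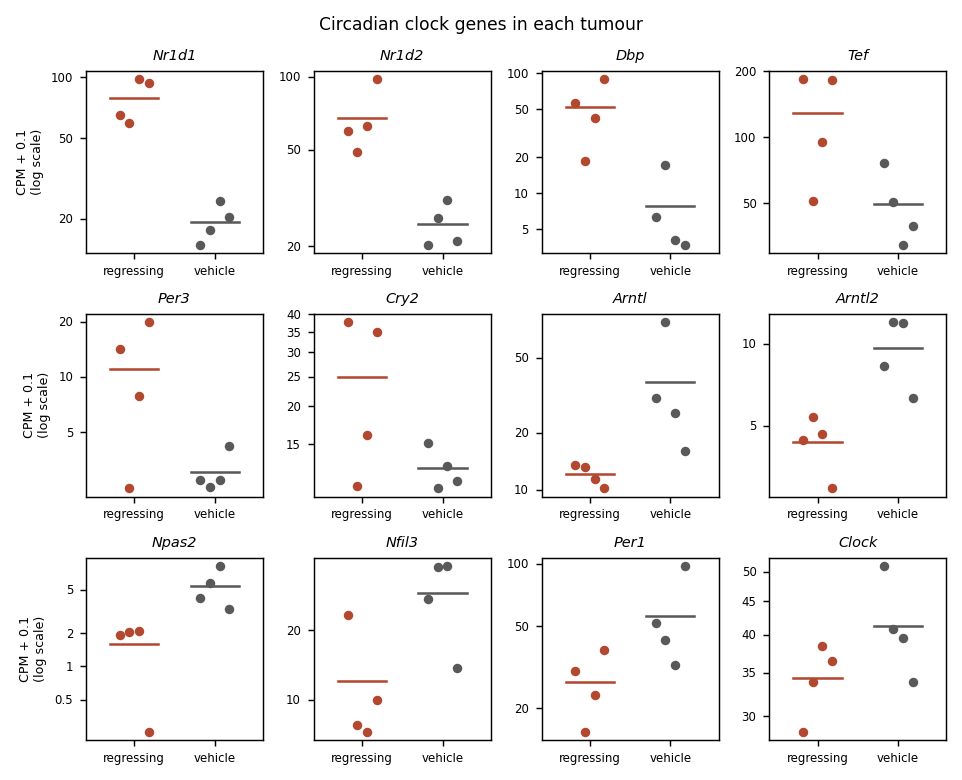
CPM + 0.1 (y axis, log scale) of 12 circadian clock genes in the 4 regressing and 4 vehicle tumours. Each point is a tumour and the line is the group mean. Nr1d1, Nr1d2 and Dbp lie wholly higher, and Arntl, Arntl2 and Npas2 wholly lower, in regressing tumours.

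Promoters of the clock list are shown for their E-boxes and D-boxes, both added after values had been seen. The E-box CACGTG lay in 27.8% of 18 clock promoters, against 11.4% of all tested, and in the same share of hnRNP promoters. The D-box, searched as TTATGTAA or TTACGTAA, was in 1 of the 18, against 0.82% of all tested. Windows of 120 bases are given for Tef (chr15:81802489-81802608, plus strand), Per1 (chr11:69098726-69098845, plus strand) and Cry1 (chr10:85185055-85185174, minus strand), with the E-box in capitals, and for Per3 (chr4:151044760-151044879, minus strand), with 2 D-boxes in capitals.
Tef: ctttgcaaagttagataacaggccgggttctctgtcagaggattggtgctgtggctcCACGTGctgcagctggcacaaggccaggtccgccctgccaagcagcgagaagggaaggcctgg
Per1: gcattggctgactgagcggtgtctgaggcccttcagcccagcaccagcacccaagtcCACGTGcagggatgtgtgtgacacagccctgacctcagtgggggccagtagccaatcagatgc
Cry1: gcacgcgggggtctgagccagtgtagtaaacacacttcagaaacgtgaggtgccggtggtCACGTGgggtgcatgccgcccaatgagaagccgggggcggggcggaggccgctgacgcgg
Per3: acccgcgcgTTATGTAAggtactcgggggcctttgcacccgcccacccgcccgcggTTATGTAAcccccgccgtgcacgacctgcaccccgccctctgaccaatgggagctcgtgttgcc
The genes with these elements did not share a direction, since the log2 differences of Tef and Per3 were 1.37 and 1.89 and those of Per1 and Cry1 -1.07 and -0.30.

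Genes of the Schwann lineage differed in both directions. Of 21 Schwann lineage and myelin genes, 6 were higher and 4 lower at an edgeR unadjusted p under 0.05, and 4 lay wholly above the vehicle tumours. Sox10, the master factor of the lineage, measured 0.892, 1.16, 1.11 and 0.5399 CPM in the regressing tumours, against 0.0856, 0, 0.0508 and 0 CPM in the vehicle tumours. It was at 0 in 2 vehicle tumours and higher in every regressing tumour than in any vehicle tumour, with a DESeq2 adjusted p of 0.0274. Ncam1, an adhesion molecule of immature Schwann cells and of regenerating muscle, measured 26.6, 38.1, 51.8 and 29.9 CPM in the regressing tumours, against 223, 52.7, 126 and 76.4 CPM in the vehicle tumours, lower without overlap (log2 difference -1.71 (SE 0.44)). The list median depended on the filter and on single libraries, at 0.92 with no filter on low counts, 0.07 with a minimum count of 50 and 0.16 to 0.76 with 1 library left out, against 0.39. The lowest was without regressing tumour 2 and the highest without vehicle tumour 4, and it was 0.19 without vehicle tumour 3. Among 13 Sox genes, Sox11, a factor of embryonic progenitors, measured 0.191, 0.0581, 0.444 and 0.0771 CPM in the regressing tumours, against 4.49, 0.143, 17.2 and 10.97 CPM in the vehicle tumours. It was high in vehicle tumours 1, 3 and 4 and near 0 in vehicle tumour 2 (log2 difference -5.3 (SE 1.21), DESeq2 adjusted p = 0.000444). Sox5 was lower and Sox6 higher, with log2 differences of -2.11 (SE 0.84) and 2.57 (SE 1.05), both with overlap. The median of the Sox list was -0.27 and reached -0.71 without regressing tumour 3. It lay between -0.53 and -0.45 without vehicle tumour 1 or 3, regressing tumour 1 or terminal tumour 3 or 4 of the combination, and was -0.63 without the FFT libraries.

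Embryonic muscle genes were high in 3 of 4 vehicle tumours. Of 17 myogenic regulators and embryonic muscle genes 12 were lower in regressing tumours, with a median of -1.65 that was -0.77 without vehicle tumour 1. Myog, which commits myoblasts to fuse, measured 1.91, 0.348, 10.8 and 18.8 CPM in the regressing tumours, against 329.5, 0.286, 66.3 and 156 CPM in the vehicle tumours. Mymx, a fusion protein of myoblasts, measured 0, 0.348, 3.64 and 0.463 CPM in the regressing tumours, against 36.1, 0, 16.2 and 9.04 CPM in the vehicle tumours. Both were high in vehicle tumours 1, 3 and 4 and at or near 0 in vehicle tumour 2, so the groups overlapped. Myh3, the embryonic myosin, and Mymk, the partner of Mymx in fusion, were likewise highest in vehicle tumour 1 and at 0 in vehicle tumour 2 and differed by -4.97 (SE 2.37) and -3.15 (SE 1.85). Gldn, a protein of the node of Ranvier, was instead high in vehicle tumour 2, at 88.05 CPM. These 3 genes and Mbp in the plot were chosen after their values were seen. Myf6, the regulator of mature fibres, went the other way, at 38.7, 3.08, 8.07 and 117 CPM in the regressing tumours, against 12.5, 0.929, 1.42 and 6.01 CPM in the vehicle tumours, highest in regressing tumours 4 and 1, the 2 with the highest sums of muscle markers.

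**Figure D4:**
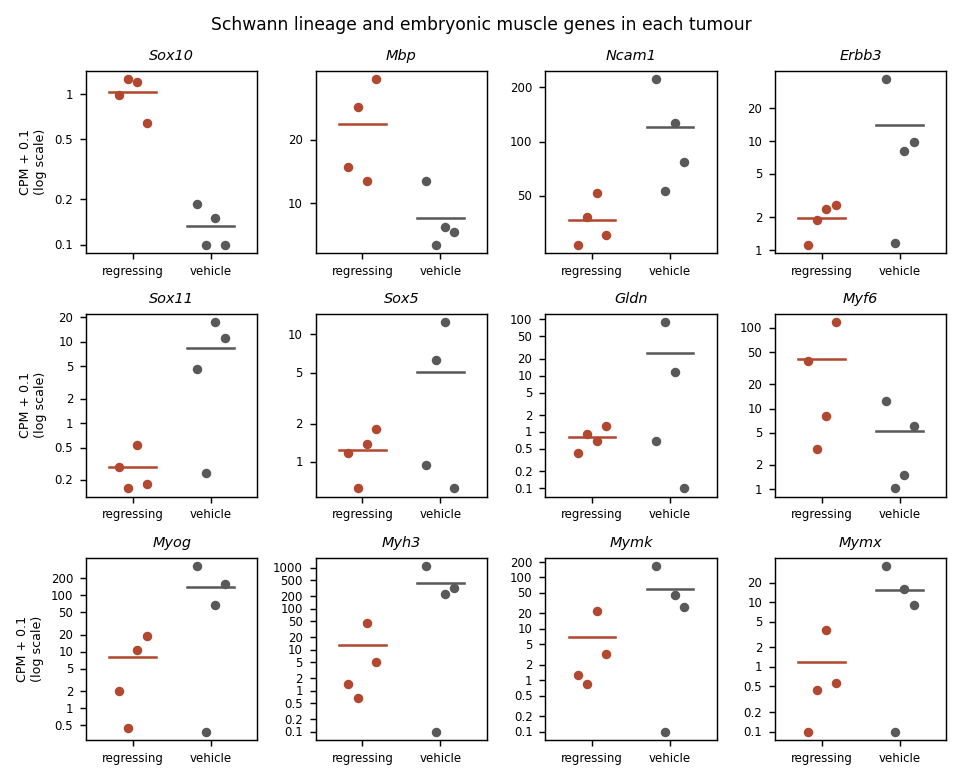
CPM + 0.1 (y axis, log scale) of Schwann lineage and embryonic muscle genes in the 4 regressing and 4 vehicle tumours, each point a tumour and the line the group mean. Sox10 lies wholly higher in regressing tumours, and Myog, Mymx and Sox11 are high in 3 of 4 vehicle tumours.

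Small proteoglycans of the matrix were mostly higher, and collagens differed in both directions. Of 14 small leucine-rich proteoglycans, which bind collagen fibrils, 11 were higher with a median of 0.70, 4 at an edgeR unadjusted p under 0.05, and the median lay between 0.37 without regressing tumour 1 and 1.21 without vehicle tumour 1 or 2, with 0.46 without regressing tumour 3, and was 1.61 without the FFT libraries. Dcn, which encodes decorin, measured 1243, 547, 656 and 2653 CPM in the regressing tumours, against 145, 466, 347 and 238 CPM in the vehicle tumours. The groups did not overlap (log2 difference 2.09 (SE 0.57), DESeq2 adjusted p = 0.0114). Ecm2 was also apart (1.68 (SE 0.57)), and Prelp and Chad overlapped (1.55 (SE 0.62) and 3.14 (SE 1.4)), with Chad at 24.8 CPM in regressing tumour 3 and below 3 CPM in all others. Of 40 collagens 16 were higher and 24 lower (median -0.15, and 0.11 without the FFT libraries). The collagen median was -0.07 without regressing tumours 1 and 4, -0.05 without vehicle tumour 1, -0.01 without vehicle tumour 2, -0.08 without vehicle tumour 3 and about -0.10 without vehicle tumour 4, regressing tumour 1 or regressing tumour 2. The 4 collagens at that p were higher, namely Col14a1 (1.35 (SE 0.48)), a fibril-associated collagen, without overlap, and Col20a1, Col11a2 and Col2a1 (2.98, 3.68 and 3.09), the last 2 of cartilage, with overlap.

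Serpins, a family of protease inhibitors, were higher in 15 of 20 cases, with a median of 0.71 and 6 at an edgeR unadjusted p under 0.05, none lower. Serpinb6a, an intracellular inhibitor, measured 501, 289, 378 and 436 CPM in the regressing tumours, against 199, 179.7, 198 and 202 CPM in the vehicle tumours. Serpina3n, an acute phase inhibitor that Schwann cells and reactive glia also make, measured 194, 86.98, 37.04 and 96.7 CPM in the regressing tumours, against 6.84, 26.4, 21.5 and 21.7 CPM in the vehicle tumours. Both lay wholly above the vehicle tumours, at log2 differences of 1.04 (SE 0.23) and 2.44 (SE 0.57), and DESeq2 called both (adjusted p 0.00379 and 0.00197). Serpina3m was at 0 in all vehicle tumours and at 2.48, 0.581, 0.222 and 1.697 CPM in the regressing ones, and Serpina3c differed by 4.04 (SE 1.22) with overlap. The Serpina3 genes are near-identical copies, so reads can be split between them. The median was 0.47 without regressing tumours 1 and 4 and 0.31 with no filter on low counts.

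Complement genes were higher in 27 of 28 cases, with a median of 0.86 and 10 at an edgeR unadjusted p under 0.05. C3, the component on which all activation routes meet, measured 182, 155, 81.8 and 855 CPM in the regressing tumours, against 64.1, 54.03, 63.9 and 49.4 CPM in the vehicle tumours. Cfd, the protease of the alternative route that fat cells secrete, measured 33.9, 78.8, 56.96 and 273 CPM in the regressing tumours, against 19.2, 5.93, 0 and 6.18 CPM in the vehicle tumours. Both were higher in every regressing tumour than in any vehicle tumour, and for both regressing tumour 4 was by far the highest. The log2 differences were 2.46 (SE 0.62) and 3.81 (SE 1.2), with DESeq2 adjusted p of 0.00385 and 0.0225. Cd55, which shields cells from complement, was higher without overlap (2.76 (SE 0.72), DESeq2 adjusted p = 0.00551), and C1ra, a protease of the classical route, overlapped (1.31 (SE 0.45)). The list scored 1.15, 0.95, 0.30 and 1.35 in the regressing tumours, against 0.54, -0.38, -0.30 and 0.13 in the vehicle tumours, as mean log2(CPM + 0.5) against the vehicle mean. Regressing tumour 3 was the lowest of its group and lay below vehicle tumour 1, and the median was 0.39 without regressing tumours 1 and 4. Adipocyte markers, to which Cfd belongs, moved in the same direction, and their part was not tested.

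Immune receptors and chemokines were also mostly higher. Of 28 C-type lectins and Siglecs 24 were higher (median 0.55, 6 at an edgeR unadjusted p under 0.05), of 28 chemokines 23 (0.61, 5) and of 29 endothelial genes 23 (0.52, 3). Without regressing tumour 1 the lectin median was 0.34, without regressing tumour 4 the chemokine median was 0.39, and without vehicle tumour 2 the endothelial median was 0.33. Without vehicle tumour 1 the lectin and chemokine medians were 0.83 and 0.97, and without regressing tumour 3 the chemokine median was 0.96. Without regressing tumours 1 and 4 the chemokine and endothelial medians were 0.34 and 0.30, and without the FFT libraries the endothelial median was 0.11. Clec3b, which encodes tetranectin of plasma and stroma, measured 30.9, 8.42, 4.35 and 26.2 CPM in the regressing tumours, against 1.11, 3.002, 0 and 1.63 CPM in the vehicle tumours. Cd209f, a lectin of the DC-SIGN family, measured 23.3, 10.4, 12.6 and 12.8 CPM in the regressing tumours, against 5.603, 0.572, 0.763 and 3.03 CPM in the vehicle tumours. Neither overlapped. Lyve1, a hyaluronan receptor of lymphatic vessels and of some macrophages, was higher with overlap (1.47 (SE 0.49)), and Egfl7, secreted by endothelium, without (0.84 (SE 0.36)). Siglech and Clec14a, of plasmacytoid dendritic cells and of endothelium, differed by 1.74 (SE 0.65) and 1.27 (SE 0.49). Among chemokines, Ppbp of platelets was higher without overlap (2.88 (SE 0.97)) and Ccl8 with overlap (1.85 (SE 0.62)). Cxcl5, a neutrophil attractant, went the other way, at 0.319, 0.2903, 0.133 and 0.386 CPM in the regressing tumours, against 0.342, 12.6, 25.9 and 0.584 CPM in the vehicle tumours. It was high in vehicle tumours 2 and 3 only, and DESeq2 called it lower (adjusted p 0.00147).

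Lymphoid lists were higher but rested on few tumours. All 26 T cell genes were higher (median 2.36), as were all 9 GIMAP genes, GTPases of lymphocytes and endothelium (1.4), a list drawn up after values had been seen, and 51 of 52 interferon-stimulated genes (0.52). Without regressing tumour 4 these medians were 0.50, 0.51 and -0.20, and without both regressing tumours 1 and 4 they were 0.59, 0.35 and -0.01. The interferon median was 1.03 without vehicle tumour 1, 0.29 without vehicle tumour 2, 0.84 without regressing tumour 3 and 1.01 without the FFT libraries. Lat, an adaptor of the T cell receptor, measured 3.12, 5.98, 1.597 and 33.9 CPM in the regressing tumours, against 2.18, 1.86, 1.58 and 1.75 CPM in the vehicle tumours. Gimap6 measured 28.5, 22.1, 16.2 and 74.9 CPM in the regressing tumours, against 16.3, 9.29, 13.5 and 20.2 CPM in the vehicle tumours. Regressing tumour 4 was the highest for both and regressing tumour 3 lay among the vehicle tumours. At an edgeR unadjusted p under 0.05, 13 T cell, 6 GIMAP and 1 interferon-stimulated gene were higher, the last being Ifi27 (0.46 (SE 0.18)). That 1 gene is 1.92% of its list, against 6.72% of all genes. Of the immunoglobulin variable genes that passed the filter, Igkv6-15 measured 23.3, 2.497, 0.7098 and 3.39 CPM in the regressing tumours, against 0.0856, 0, 0.102 and 0.117 CPM in the vehicle tumours. These genes are a repeated family that share reads.

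**Figure D5:**
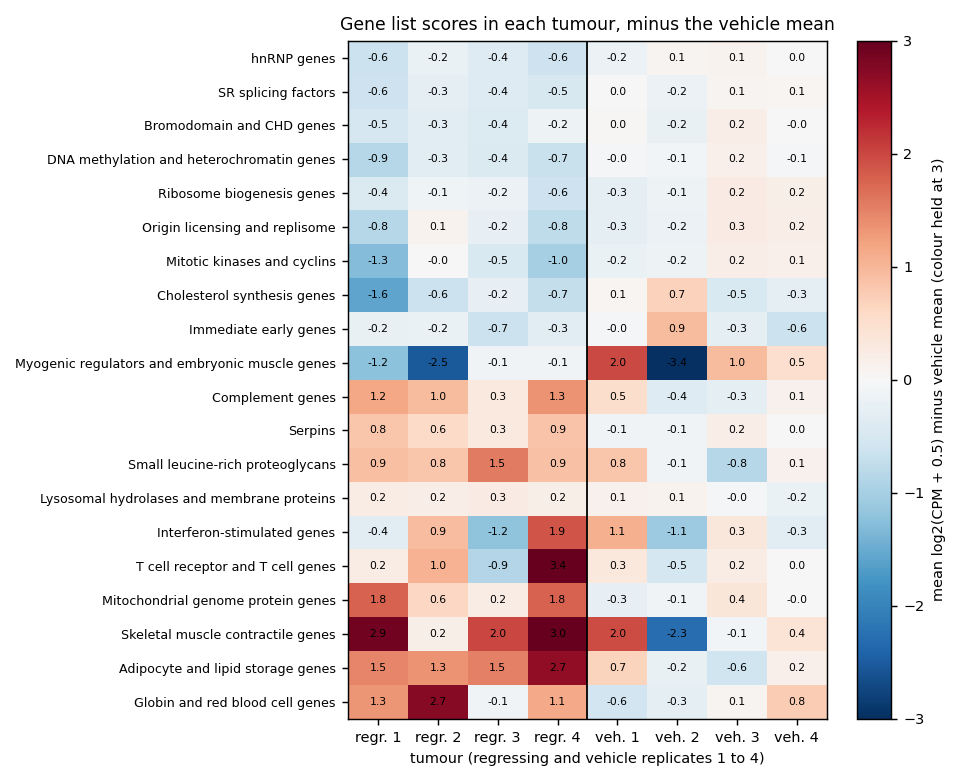
Mean log2(CPM + 0.5) of each gene list in each tumour, minus the mean of the 4 vehicle tumours (colour and printed value; colour held at 3). Regressing tumours stand left of the line and vehicle tumours right of it. The scores of hnRNP, SR, heterochromatin, serpin, proteoglycan, lysosomal and adipocyte genes do not overlap between the groups, while mitotic, T cell and interferon scores do.

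Energy genes were higher, most in the 2 tumours with the most muscle marker RNA. All 12 protein genes of the mitochondrial genome tested were higher (median 1.28, 9 at an edgeR unadjusted p under 0.05, 7 without overlap), and 74 of 84 nuclear genes of oxidative phosphorylation (0.25, 14). mt-Nd1, a subunit of complex I, measured 2729, 1250, 889 and 2467 CPM in the regressing tumours, against 523, 615, 784 and 551 CPM in the vehicle tumours. mt-Co3, a subunit of cytochrome oxidase, measured 50.6, 28.2, 17.1 and 49.2 CPM in the regressing tumours, against 13.6, 13.1, 10.4 and 10.4 CPM in the vehicle tumours. Both were highest in regressing tumours 1 and 4 and did not overlap with the vehicle tumours. The nuclear genes with the smallest p, Cox7a1 and Cox8b, are muscle and brown fat forms of oxidase subunits and differed by 3.73 (SE 0.96) and 3.1 (SE 1.02). Ndufb4 and Ndufa5, complex I subunits of all tissues, differed by 0.61 (SE 0.20) and 0.55 (SE 0.20). Without regressing tumours 1 and 4 the medians were 0.37 for the mitochondrial genome and 0.03 for the nuclear genes, and the nuclear median was 0.09 without the FFT libraries and 0.14 without regressing tumour 1.

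Genes of the lysosome were slightly higher, in 30 of 41 cases (median 0.16). Naglu (ENSMUSG00000001751, chr11:101070012-101077672, GRCm38), which encodes a heparan sulfate hydrolase, had the smallest p of all 15650 genes. It measured 89.4, 87.4, 115 and 95.2 CPM in the regressing tumours, against 44.2, 62.2, 44.03 and 46.9 CPM in the vehicle tumours. Every regressing tumour was above every vehicle tumour, with a log2 difference of 0.97 (SE 0.16), an edgeR unadjusted p of 6.7e-05, an edgeR adjusted p of 0.236 and a DESeq2 adjusted p of 4.26e-05. Tfeb, the factor that switches on lysosomal genes, measured 54.98, 17.7, 23.96 and 45.05 CPM in the regressing tumours, against 16.9, 13.1, 10.02 and 15.1 CPM in the vehicle tumours, and Fuca1, a fucosidase, measured 119, 96.04, 92.2 and 118 CPM in the regressing tumours, against 75.2, 85.8, 71.3 and 64.8 CPM in the vehicle tumours. Neither overlapped, and DESeq2 called both (adjusted p 0.0105 and 0.0324). Smpd1, the acid sphingomyelinase, overlapped (0.51 (SE 0.18)). The list score, as mean log2(CPM + 0.5) against the vehicle mean, was 0.22, 0.21, 0.25 and 0.19 in the regressing tumours, against 0.12, 0.10, -0.03 and -0.19 in the vehicle tumours. The groups did not overlap, and the median was 0.26 without the FFT libraries.

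Heat shock genes differed in both directions. Of 31 heat shock genes 21 were lower and 10 higher, and at an edgeR unadjusted p under 0.05, 7 were lower and 4 higher. Hsph1, a co-chaperone of the heat-inducible Hsp70 system, measured 92.3, 85.3, 126 and 79.5 CPM in the regressing tumours, against 209, 129.8, 159 and 246 CPM in the vehicle tumours. Hspa1a, an inducible Hsp70, measured 4.14, 2.27, 3.64 and 2.39 CPM in the regressing tumours, against 11.04, 5.22, 13.98 and 7.99 CPM in the vehicle tumours. Both were lower in every regressing tumour than in any vehicle tumour (log2 differences -0.95 (SE 0.21) and -1.62 (SE 0.45), DESeq2 adjusted p 0.00575 and 0.029), although Hspa1a has a near-identical copy. Hspb6, a small heat shock protein of muscle, measured 491, 57.4, 159 and 324 CPM in the regressing tumours, against 63.2, 20.6, 18.4 and 28.6 CPM in the vehicle tumours, and Hspa1l differed by 2.73 (SE 0.90), both with their highest values in regressing tumours 1 and 4. In the endoplasmic reticulum, 16 of 25 unfolded protein response genes were lower (median -0.14), with 4 at that p, all lower, and the median was -0.06 without regressing tumours 1 and 4, -0.08 without vehicle tumour 1 and -0.09 without vehicle tumour 4. These 4 were Hyou1 and Hspa5 without overlap (-0.69 (SE 0.17) and -0.53 (SE 0.19)) and Creld2 and Pdia6 with overlap (-0.66 (SE 0.22) and -0.46 (SE 0.17)), which are chaperones and folding factors.

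Genes of muscle, fat and blood showed some of the largest differences. Of 36 skeletal muscle contractile genes 30 were higher (median 2.14, 17 at an edgeR unadjusted p under 0.05, 13 called by DESeq2), and the median was 0.74 without regressing tumours 1 and 4. Tcap, the cap of titin, measured 1004, 102, 169 and 997 CPM in the regressing tumours, against 54.2, 6.15, 8.39 and 29.99 CPM in the vehicle tumours, and Myoz1, its partner at the Z-disc, differed by 4.26 (SE 1.17). Of 16 ASB genes, ubiquitin ligase adaptors of which several are specific to muscle, on a list drawn up after values had been seen, 13 were higher (1.45, and 0.52 without those 2 tumours and 0.91 without regressing tumour 1), led by Asb12, Asb15, Asb16 and Asb11 (4.3, 3.8, 2.74 and 3.8). Of 23 adipocyte genes 19 were higher (1.93, 15 at that p), and 11 did not overlap, including Plin5, a coat protein of lipid droplets, at 3.57, 0.465, 0.976 and 1.08 CPM in the regressing tumours, against 0.0856, 0.143, 0 and 0 CPM in the vehicle tumours. Of 10 globin and red cell genes 9 were higher (2.36, and 1.06 without regressing tumour 2), and Fech, the last enzyme of haem synthesis, measured 108, 80.7, 79.3 and 93.5 CPM in the regressing tumours, against 69.8, 66.97, 62.2 and 61.3 CPM in the vehicle tumours. Fech did not overlap and is expressed by most tissues.

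By the smallest p, the 10 leading higher genes were Naglu, Bmp6, Iglc2, Myoc, Igkv6-15, Glycam1, Sncg, Cmbl, Igkv4-59 and Iglc1. Bmp6, a bone morphogenetic protein that also signals iron stores, measured 6.31, 5.69, 8.65 and 5.01 CPM in the regressing tumours, against 2.18, 1.43, 1.78 and 2.22 CPM in the vehicle tumours. Sncg, a synuclein of peripheral neurons and fat, measured 22.6, 9.93, 10.2 and 15.6 CPM in the regressing tumours, against 1.93, 1.57, 1.22 and 1.23 CPM in the vehicle tumours. Myoc, a secreted protein of nerve sheath, muscle and eye, measured 18.9, 8.65, 3.86 and 4.17 CPM in the regressing tumours, against 0.984, 0.214, 0.152 and 0.292 CPM in the vehicle tumours. In all 3 the groups lay apart, and Myoc was highest among vehicle tumours in vehicle tumour 1. Cmbl, a hydrolase, differed by 1.68 (SE 0.32), and the immunoglobulin light chain genes and Glycam1, a sialomucin of lymph node vessels, differed by 5.11 to 7.61 on the log2 scale from vehicle tumours near 0, where the size depends on the prior count. The 10 leading lower genes were Bcl9, Safb, Zfp532, Ccar1, Zfp609, Diexf, H2afx, Smc5, Spen and Gm38394. Bcl9, a co-activator of beta-catenin, measured 19.9, 25.7, 24.1 and 20.2 CPM in the regressing tumours, against 53.4, 36.7, 35.1 and 52.6 CPM in the vehicle tumours. Safb, which binds RNA and nuclear scaffold, measured 48.7, 54.3, 50.9 and 53.6 CPM in the regressing tumours, against 81.2, 69.2, 80.7 and 91.6 CPM in the vehicle tumours. H2afx, the histone variant of DNA breaks, measured 27.1, 41.3, 36.8 and 35.6 CPM in the regressing tumours, against 52.4, 86.3, 73.3 and 57.8 CPM in the vehicle tumours. None overlapped, and their log2 differences were -0.98 (SE 0.18), -0.64 (SE 0.12) and -0.94 (SE 0.20). The other named lower genes differed by -0.84 for Zfp532, -0.77 for Ccar1 (a transcription co-activator), -0.76 for Zfp609, -0.78 for Diexf (a nucleolar protein), -0.79 for Smc5 (a DNA repair complex), -0.89 for Spen (a transcription repressor) and -1.3 for Gm38394. DESeq2 called all 20 genes of these 2 groups. They were picked by edgeR p from the same counts, so this is no separate support.

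By size, among genes of at least 5 CPM whose groups did not overlap, the 10 with the largest higher differences were Igkv3-4, Rasd2, Perm1, Pvalb, Rpl3l, Tcap, Phkg1, Prr33, Igkc and 2310002L09Rik. Apart from the immunoglobulin genes they were highest in regressing tumours 1 and 4, or in tumour 1 alone for Rasd2, which measured 304, 13.6, 10.9 and 13.6 CPM in the regressing tumours, against 7.74, 0.786, 0 and 4.61 CPM in the vehicle tumours. Perm1, a muscle regulator of mitochondria, and Phkg1, the muscle phosphorylase kinase, differed by 4.68 (SE 1.1) and 4.46 (SE 1.12). The 10 with the largest lower differences were Sdk2, Car12, Fam189a1, Kif26b, Cachd1, Pcdh17, Artn, Mboat2, Wnt7b and Grik2. Sdk2, an adhesion molecule of synapses, measured 0.382, 0.2903, 0.798 and 0.154 CPM in the regressing tumours, against 4.88, 8.22, 17.1 and 11.5 CPM in the vehicle tumours. Artn, artemin, a growth factor of sensory neurons, measured 4.46, 2.09, 4.48 and 2.08 CPM in the regressing tumours, against 6.63, 37.1, 9.56 and 5.601 CPM in the vehicle tumours. Wnt7b, a Wnt ligand, measured 8.15, 19.7, 12.7 and 0.0771 CPM in the regressing tumours, against 38.9, 24.2, 33.7 and 58.5 CPM in the vehicle tumours. Vehicle tumour 3 was the highest for Sdk2, vehicle tumour 2 for Artn and vehicle tumour 4 for Wnt7b, so no single library led all of them. Kif26b, a kinesin relative, was high in vehicle tumour 2 at 367 CPM and Cachd1, a calcium channel relative, in vehicle tumour 3 at 268 CPM. Mboat2, an acyltransferase of phospholipids, was more even, at 1.72, 3.37, 6.25 and 1.62 CPM in the regressing tumours, against 15.2, 20.1, 10.6 and 12.1 CPM in the vehicle tumours, with a log2 difference of -2.15 (SE 0.57) and a DESeq2 adjusted p of 0.0113. Car12, a carbonic anhydrase, Fam189a1, Pcdh17, a protocadherin, and Grik2, a glutamate receptor, differed by -3.72 (SE 1.46), -3.41 (SE 1.17), -2.26 (SE 0.70) and -1.9 (SE 0.77).

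The p53 target genes stayed near the background. Of 28 p53 target genes 14 were higher and 14 lower, with a median of -0.04, 3 higher and 1 lower at an edgeR unadjusted p under 0.05. The median was -0.07 without regressing tumours 1 and 4, 0.04 without the FFT libraries and -0.05 to 0.03 with 1 library left out. Ccng1, a cyclin that p53 induces, measured 485, 198, 265 and 238 CPM in the regressing tumours, against 136, 119, 187 and 188 CPM in the vehicle tumours, without overlap. Ak1, an adenylate kinase rich in muscle, Tigar, a phosphatase of glycolysis, and Btg2, an antiproliferative factor, overlapped and differed by 1.1 (SE 0.41), 1.36 (SE 0.57) and -1.62 (SE 0.70). Regressing tumour 1 was the highest for Ccng1, Ak1 and Tigar.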

How the data were processed

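Per the labels, total RNA was taken from tumour tissue with the RNeasy mini kit and sequenced as TruSeq Stranded mRNA libraries. The authors deposited 1 table of raw counts per Ensembl gene for each of 12 tumours. The submitters' processing notes list HISAT2 2.2.1, Salmon, DESeq2 1.24.0, mm10 and GRCm38.p6, with no role for each, and the counting tool and its strand setting are not given in the sources used here. Without a stated strand setting, reads of a gene and of a gene antisense to it cannot be told apart. Totals were 13194699 to 22639625 counts, and no pair of libraries was a repeat (lowest chi-square per degree of freedom 56.8 over 66 pairs).

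Symbols came from GENCODE M21, which held 54495 of 54532 gene IDs. With edgeR 4.0.16 in R 4.3.3, filterByExpr at a minimum count of 10 and a minimum total of 15 left 15650 genes, which were scaled by TMM and tested by the quasi-likelihood test for regressing minus vehicle in a fit of all 12 libraries with 3 groups (9 residual degrees of freedom, biological coefficient of variation 0.477). P-values were adjusted by Benjamini-Hochberg over all genes. DESeq2 1.42.0 and limma 3.58.1 (voom) were alternatives, together with RLE scaling, no filter, a minimum count of 50, the 8 libraries alone, FFT as a covariate, the libraries without FFT and each library left out. Each tool was also tested on counts simulated from the means and edgeR spread of these genes, with known changes. At an adjusted p under 0.05, edgeR called 14.3% of genes changed 2-fold and 65.4% of those changed 4-fold. DESeq2 called 36.1% and 79.2%, and voom 15% and 63.1%. Of unchanged genes, edgeR called 0.0197%, DESeq2 0.303% and voom 0.0164%. As counts, DESeq2 called 92 unchanged genes beside 48, 103 and 122 genes changed 2-fold, 4-fold and 8-fold. For edgeR these were 6 beside 19, 85 and 106, and for voom 5 beside 20, 82 and 100. The DESeq2 calls thus held a larger share of unchanged genes than an adjusted p of 0.05 states.

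The members and the gene lists were chosen with earlier results of these data known, and 15 of the 118 lists and 4 of the 8 motifs after values had been seen. Lists are described by counts and medians, with no test. Named genes were the 10 higher and 10 lower with the smallest edgeR p, the 10 higher and 10 lower with the largest difference among genes of at least 5 CPM whose groups do not overlap, up to 4 members with the smallest p of each list described, and a set of drug target and cell cycle genes. A few genes that this rule names are not reported here. Other genes are said to be chosen after their values were seen. List scores are the mean of log2(CPM + 0.5). Promoters are RefSeq sequences of GRCm38.p6, with mouse chromosome 18 not used, and 11219 of the tested genes had one.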

Additional observations from a re-analysis of the deposited data

Results flagged for a closer look

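In each group of 4 tumours, the highest or lowest value of a named gene was set against the others, and a tumour was taken to stand apart where its gap to the nearest other, as a share of the whole range, exceeded Dixon's 95% critical value for 4 samples. For normally distributed values, chance alone gives about 1 such case in 20 groups. That rate need not hold here, since CPM were used without a log and many of the genes were named by their values. Of 449 groups, 41 held such a tumour. All values are CPM and no explanation was tested. Regressing tumour 1 stood above the other regressing tumours at 113.6 CPM for Asb11, 24.02 CPM for Asb12, 73.84 CPM for Chac1, 23.26 CPM for Igkv6-15, 23.13 CPM for Nfil3 and 304.5 CPM for Rasd2. Regressing tumour 3 stood above the other regressing tumours at 24.75 CPM for Chad, 45.56 CPM for Myh3, 21.78 CPM for Mymk and 3.638 CPM for Mymx, and below them at 11.27 CPM for Cry1. Regressing tumour 4 stood above the other regressing tumours at 854.6 CPM for C3, 29.7 CPM for Cyp2f2, 33.86 CPM for Lat and 25.61 CPM for Rb1, and below them at 0.1543 CPM for Npas2. Vehicle tumour 1 stood above the other vehicle tumours at 2.352 CPM for 2310002L09Rik, 3.122 CPM for Asb15, 2.566 CPM for Chad, 30.92 CPM for Diexf, 0.9838 CPM for Myoc and 244.2 CPM for Plat. Vehicle tumour 2 stood above the other vehicle tumours at 37.09 CPM for Artn, 88.05 CPM for Gldn, 367.4 CPM for Kif26b, 260.4 CPM for Mapk3, 62.18 CPM for Naglu, 36.73 CPM for Noc3l and 26.73 CPM for Nr4a2. Vehicle tumour 3 stood above the other vehicle tumours at 267.7 CPM for Cachd1, 57.04 CPM for Car12, 0.05084 CPM for Glycam1, 17.95 CPM for Grik2, 2071 CPM for Jun, 46.21 CPM for Smc5 and 174.7 CPM for Suv39h1. Vehicle tumour 4 stood above the other vehicle tumours at 300 CPM for Hyou1, 81.63 CPM for Igkc, 46.15 CPM for Ndufa5, 4.084 CPM for Per3 and 162.7 CPM for Snrnp70. Regressing tumour 2 stood apart in none of these genes.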

How the results depend on the processing

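No paired analysis was possible because the labels give the groups no shared replicate numbers. The number of genes past an adjusted p of 0.05 was 0 with edgeR and with limma voom under each alternative run and 477 with DESeq2. At an unadjusted p under 0.05 the count was 1994, and lay between 1272 (without regressing tumour 1) and 2200 (without regressing tumour 2) with 1 library left out; of these, 551 to 1035 were lower in regressing tumours. It was 1283 in the libraries without the FFT ending, 578 of them lower, and 582 without regressing tumours 1 and 4, with 285 higher and 297 lower, where fewer libraries are compared. Genes whose groups do not overlap numbered 1195, 1197 to 2284 with 1 library left out, 4860 without the FFT libraries and 2385 without regressing tumours 1 and 4, since fewer libraries overlap less often by construction. List medians changed sign in 15 of 1078 recomputations, in 7 of 49 lists, and the cause was not tested. Of these, 9 were in 3 lists within 0.1 of 0, namely cytosolic ribosomal proteins, proteasome subunits and p53 targets. In the other lists the medians were 0.04 for immediate early genes, 0.03 for receptor tyrosine kinases and 0.11 for collagens without the FFT libraries; with 1 library left out, immediate early genes ranged from -1.01 to 0.01 and interferon-stimulated genes from -0.2 to 1.03, and the interferon median was -0.01 without regressing tumours 1 and 4. Among the 30 named genes not under an unadjusted edgeR p of 0.05, 12 changed sign in some alternative, and among those under it 1 did, Btg2 at 0.11 without the FFT libraries. Of 195 named genes under an unadjusted edgeR p of 0.05, 127 kept their direction and that p when any single library was left out, and 75 in every alternative run. Depth limits genes of a few CPM, such as Sox10 and Serpina3m, where 1 count is a large step.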

Other observations

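Several families outside the comparison above also differed. Of 51 DDX and DHX helicases, which unwind RNA, 42 were lower in regressing tumours with a median log2 difference of -0.25, and 10 had an edgeR unadjusted p under 0.05 in that direction and 1 in the other. Ddx17 measured 206, 194, 214 and 221 CPM in the regressing tumours, against 391, 318, 283 and 265 CPM in the vehicle tumours, without overlap and with a DESeq2 adjusted p of 0.00923. Of 43 general transcription factors 34 were lower (median -0.20, or -0.12 without vehicle tumour 3, 10 at that p, none higher), with Gtf2ird1 at -0.65 (SE 0.16) and Gtf3c1, of RNA polymerase III, at -0.61 (SE 0.18), both without overlap. Mediator subunits and histone acetylases and deacetylases were closer to 0, at -0.14 (-0.22 without the FFT libraries) and -0.15 (-0.24 without regressing tumours 1 and 4). Ep300, a histone acetylase, was among the lower ones without overlap (-0.48 (SE 0.17)). Of 18 ephrins and Eph receptors 15 were lower, with a median of -0.51 that was -0.89 without regressing tumour 3, -0.18 without vehicle tumour 2, -0.27 without regressing tumour 4 and -0.29 without regressing tumours 1 and 4.

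Enzymes of small-molecule metabolism included members that were higher without overlap. Cyp2f2, a cytochrome P450, measured 15.7, 14.8, 14.9 and 29.7 CPM in the regressing tumours, against 4.49, 1.86, 0.661 and 2.16 CPM in the vehicle tumours. Gstm4, a glutathione transferase, measured 12.7, 12.1, 13.04 and 12.5 CPM in the regressing tumours, against 9.28, 6.86, 7.27 and 5.43 CPM in the vehicle tumours, with a narrow range in the regressing tumours. DESeq2 called both (adjusted p 0.00143 and 0.0105). Of 23 cytochrome P450 genes 17 were higher (median 0.29, 4 at an edgeR unadjusted p under 0.05). Chac1, a glutathione-degrading enzyme, measured 73.8, 11.8, 10.8 and 17.4 CPM in the regressing tumours, against 5.69, 1.79, 4.32 and 5.78 CPM in the vehicle tumours, while Slc3a2, the heavy chain of amino acid exchangers, measured 99.1, 125, 102 and 121 CPM in the regressing tumours, against 154, 212, 182 and 172 CPM in the vehicle tumours. Both are on the list of amino acid transport and Atf4 target genes, differed in opposite directions and did not overlap. Nr3c2, the mineralocorticoid receptor, averaged 4.49 ± 1.08 CPM in regressing tumours and 1.19 ± 0.402 CPM in vehicle tumours (SD, n = 4 each), wholly higher in regressing tumours (DESeq2 adjusted p = 0.0455). The genes named in these 2 paragraphs were chosen after their values were seen.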
